A study of Arabidopsis thaliana with 17 samples.

Results

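The chloroplast genome of Arabidopsis thaliana keeps genes for part of its own ribosome and for the core of its own RNA polymerase, and their transcript levels were followed here through a heat treatment, a recovery and a repeated heat treatment. The genes were taken as those probe sets of the array that are annotated to exactly 1 plastid-encoded gene whose symbol starts with rps (small ribosomal subunit), rpl (large ribosomal subunit) or rpo (RNA polymerase). Of 25 such symbols in the RefSeq gene table (assembly TAIR10.1), 19 had a probe set of this kind, 1 each, out of 22746 probe sets in all. They comprised 4 polymerase genes (rpoA, rpoB, rpoC1 and rpoC2), 8 small subunit genes (rps2, rps3, rps4, rps14, rps15, rps16, rps18 and rps19) and 7 large subunit genes (rpl14, rpl16, rpl20, rpl22, rpl32, rpl33 and rpl36). The other symbols were not analysed here, among them rps7, rps12, rpl2 and rpl23, whose probe sets are annotated to several genes.

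Plastids descend from cyanobacteria and translate their messages on ribosomes of bacterial type, whose proteins are encoded partly in the plastid and partly in the nucleus. The plastid-encoded RNA polymerase (PEP) has an alpha subunit (rpoA), a beta subunit (rpoB) and a beta prime subunit split over rpoC1 and rpoC2, and it works with sigma factors and associated proteins from the nucleus. A second, nuclear-encoded polymerase of phage type also transcribes plastid genes, and it is known for its part in transcribing the rpo genes and several ribosomal protein genes. Plastid genes are commonly read as long polycistronic RNAs that are then processed, so the messages of neighbouring genes are not independent of each other.

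Whole seedlings of 7 d, kept under a 16 h day at 22 °C, were profiled on 17 Affymetrix arrays. In the wild type (accession Col-0), 3 arrays came from seedlings that were primed (1 h at 37 °C at 4 d of age, followed by 3 d of recovery) and then triggered (1 h at 37 °C just before collection), 3 from seedlings that were only triggered, 2 from seedlings that were only primed and 3 from naive seedlings that were never heated. The hsfa2 mutant is the T-DNA line SALK_008978 in the same accession, labelled as a knockout of the heat shock transcription factor HSFA2. It contributed 2 primed and triggered, 2 triggered and 2 naive arrays and no array that was only primed. It is a single insertion line, and because HSFA2 had no listed probe set, the genotype was not checked on its target. According to the labels, arrays within a group are biological replicates, but no separate cultures are named, so p-values measure the spread between these arrays.

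Levels are log2 of the submitters' RMA intensities, and a change is a difference of group means on that log2 scale, so that 1 unit is a 2-fold difference. A gene was called changed where limma, fitted to all 17 arrays in 7 groups and adjusted by Benjamini-Hochberg over all 22746 probe sets, gave an adjusted p under 0.05. In whole seedlings, fewer cells of a type and less RNA per cell cannot be told apart. Arrays heated just before collection had median intensities of 51.8 to 58.9, against 60.1 to 64.2 in naive and primed arrays. The leaf genes RCA and PRK lay at 13.34 to 13.84 and 12.01 to 13.11 over all arrays. The root gene PYK10 lay at 10.38 to 12.90, EXPA7 at 3.80 to 6.26 and EXPA18 at 4.41 to 6.93, and the mean over these 3 root genes was 6.30 to 6.91 in heated arrays and 7.68 to 8.70 in the others. In 3 arrays, both wild-type primed arrays and wild-type naive replicate 3, the hybridization control bioB was at 4.45 to 4.57, against 7.16 to 8.21 in the other 14. For GAPDH, the 3′ signal exceeded the 5′ signal by 1.84 to 2.25 in the same 3 arrays, against 0.52 to 1.69 in the others. Among the others, wild-type triggered replicate 1 was at 1.57 and primed and triggered replicate 1 at 1.69. The 25S rRNA signal was 8.57 in wild-type naive replicate 1, 11.39 in triggered replicate 1 and 11.56 in primed and triggered replicate 1, and 11.99 to 12.80 elsewhere. The part of the bioB, GAPDH and 25S signals in the results below was not tested beyond leaving out single arrays and fitting the low-bioB arrays as a block.

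Most of the 19 genes were bright. The probe sets of rpoB (mean 4.56 over all arrays) and rps14 (mean 4.21) were dim, and rps14 lay below its own array's 25th percentile in 5 of 17 arrays and rpoB in 1. A filter that keeps probe sets with a mean of at least 5 would leave 17 of the 19. All 19 entered the fit, and values of rpoB and rps14 carry less information than the others. The probe set of rps16 had a mean of 5.77, but it was at 4.49 and 4.70 in wild-type triggered replicates 1 and 2, near those dim means.

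How a first heat treatment changed the transcripts was tested by setting triggered against naive wild-type seedlings. Of the 19 genes, 18 had a lower mean in triggered seedlings, against 49.5% of all probe sets, and rpoB was the exception. The median change was −1.27, against 0.00 over all probe sets. Limma called 4 genes lower (rps3, rpl22, rps18 and rps16) and 0 higher, where it called 9.50% of all probe sets lower and 15.4% in either direction. At an unadjusted p under 0.05, 11 of the 19 genes passed, against 6402 of all 22746 probe sets. In 8 of 19 genes every triggered array lay below every naive array, which held for 16.0% of all probe sets. Besides the 4 called genes these were rps4, rps19, rpl16 and rpoA. Heated arrays had lower median intensities, but not lower intensities throughout. Their 25th percentile of log2 intensity was 3.82 to 3.95, against 3.74 to 3.84 in the other arrays. Centring each array on its median raised every change of this comparison by 0.15. It left 18 of 19 genes below 0, with a median of −1.11 and 3 calls. Over all probe sets, centring gave 2831 higher and 1493 lower calls, or 6.56% lower, against 1341 higher and 2161 lower as reported.

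**Figure D1:**
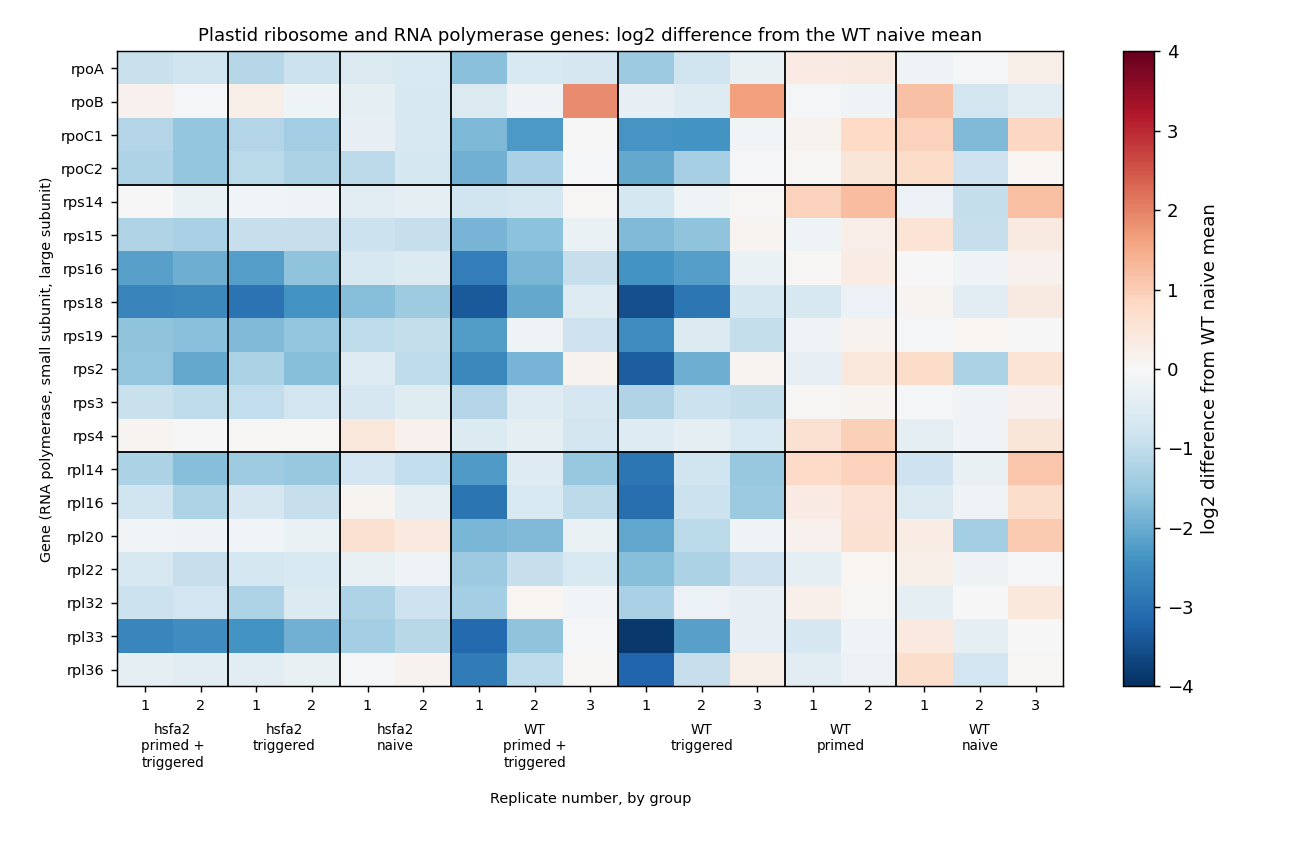
Log2 difference of each of the 19 genes (rows, grouped as RNA polymerase, small subunit and large subunit) from its wild-type naive mean in each of the 17 arrays (columns, by group and replicate number). Blue is lower and red higher than the wild-type naive mean. Replicate 1 of the triggered and of the primed and triggered wild type are the bluest columns, and replicate 3 of both groups is mostly pale, with rpoB red and rpl14 and rpl16 blue.

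The size of the difference depended on the array. Relative to the wild-type naive mean, the median over the 19 genes was −2.07, −0.92 and −0.30 in triggered replicates 1, 2 and 3, against 0.12, −0.38 and 0.34 in naive replicates 1, 2 and 3. Triggered replicate 1 therefore lay far below all naive arrays, whereas triggered replicate 3 lay close to naive replicate 2. The GAPDH 3′ excess was 1.57, 0.60 and 0.94 in triggered replicates 1 to 3, and 0.65, 0.87 and 2.25 in naive replicates 1 to 3. The 25S signal was 11.39, 12.57 and 12.52 in these triggered arrays, and 8.57, 12.01 and 12.46 in these naive arrays. A link of these signals to the plastid medians was not tested. Set array against array, 19 of 19 genes were lower in triggered replicate 1 than in naive replicate 1 (median −2.37), and 10 of 19 were lower in triggered replicate 3 than in naive replicate 2 (median −0.10). The number of calls moved with single arrays. It was 2, with a median of −0.76, without triggered replicate 1, 2 without naive replicate 3, and 9, with a median of −1.70, without triggered replicate 3. Over all probe sets, limma called 10.7% without triggered replicate 1 and 13.5% without triggered replicate 3, against 15.4% with all arrays. The calls of rps3 and rpl22 held under each of the 15 alternatives run, while that of rps18 held in 9 and that of rps16 in 6.

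Among the polymerase genes none was called, and the median change of the 4 was −1.01. The alpha subunit gene rpoA, whose product starts the assembly of the core enzyme in bacteria, was at 10.90, 11.55 and 12.05 in triggered replicates 1 to 3, against 12.18, 12.30 and 12.59 in naive replicates 1 to 3. Its groups did not overlap, and the change was −0.85 (SE 0.29, limma adjusted p = 0.0644). The beta prime genes overlapped between groups. rpoC1 was at 7.30, 7.28 and 9.56 in triggered arrays, against 10.61, 7.91 and 10.50 in naive arrays, a change of −1.62 (SE 0.77, limma adjusted p = 0.189). Triggered replicate 3 and naive replicate 2 were the arrays that crossed. rpoC2 was at 6.37, 7.09 and 8.34 in triggered arrays, against 9.17, 7.61 and 8.51 in naive arrays, a change of −1.16 (SE 0.52, limma adjusted p = 0.166). The dim beta subunit gene rpoB stood near the lower end of the signal in most arrays, at 4.20, 4.00 and 6.14 in triggered arrays, against 5.69, 3.79 and 4.05 in naive arrays (change 0.27, SE 0.67, limma adjusted p = 0.835). Its high values were those of triggered replicate 3 and naive replicate 1.

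The small subunit held 3 of the 4 calls, and all 8 of its genes had a lower mean in triggered seedlings (median −1.21). The gene rps3, whose bacterial counterpart sits where the messenger enters the ribosome, was at 10.70, 11.04 and 10.94 in triggered arrays, against 11.87, 11.77 and 12.07 in naive arrays. The 2 groups were tight and well apart, with means of 10.89 ± 0.18 in triggered and 11.90 ± 0.15 in naive arrays (SD, n = 3 each), and the change of −1.01 (SE 0.16) had a limma adjusted p = 0.000876. The gene rps18, which is essential in tobacco, was at 5.74, 6.36 and 8.54 in triggered arrays, against 9.37, 8.79 and 9.60 in naive arrays. Its highest triggered array lay only 0.25 below its lowest naive array, and the change of −2.37 (SE 0.69, limma adjusted p = 0.0330) was the lowest of the 19. The gene rps16, which carries an intron in Arabidopsis, was at 4.49, 4.70 and 6.63 in triggered arrays, against 6.88, 6.74 and 7.06 in naive arrays. Here too triggered replicate 3 stood apart from replicates 1 and 2 and just under the naive arrays, and the change was −1.62 (SE 0.50, limma adjusted p = 0.0444). Under centring the rps16 call was lost (adjusted p = 0.0554).

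The other small subunit genes did not pass the test. The gene rps4 encodes a protein that binds the ribosomal RNA at an early step of assembly in Escherichia coli. It was at 11.46, 11.57 and 11.37 in triggered arrays, against 11.60, 11.84 and 12.47 in naive arrays, so the groups did not overlap but nearly met (change −0.51, SE 0.19, limma adjusted p = 0.0974). The gene rps19, for a protein of the head of the small subunit, was at 9.41, 11.32 and 10.92 in triggered arrays, against 11.81, 11.96 and 11.88 in naive arrays (change −1.33, SE 0.48, limma adjusted p = 0.0811). The naive arrays of rps19 spanned 0.15, and triggered replicate 1 was the one far below. Changes of rps2 (−1.70), rps15 (−1.10) and rps14 (−0.27) had overlapping groups and adjusted p-values from 0.187 to 0.728.

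In the large subunit 1 gene was called, and all 7 had a lower mean in triggered seedlings (median −1.28). The gene rpl22, whose bacterial counterpart lines the tunnel through which the new protein leaves, was at 9.93, 10.35 and 10.79 in triggered arrays, against 11.87, 11.43 and 11.58 in naive arrays. Every triggered array was at least 0.64 below every naive array, and the change was −1.27 (SE 0.24, limma adjusted p = 0.00281). The gene rpl33, which tobacco can do without under normal growth, was at 7.18, 8.87 and 10.68 in triggered arrays, against 11.42, 10.65 and 11.01 in naive arrays. This was the widest spread among triggered arrays, 3.51, and the change of −2.11 (SE 0.77) was not called (limma adjusted p = 0.0864). The gene rpl16, for a protein near the centre that joins amino acids in bacteria, was at 7.58, 9.76 and 9.13 in triggered arrays, against 10.04, 10.48 and 11.32 in naive arrays (change −1.79, SE 0.59, limma adjusted p = 0.0596). For its neighbour rpl14 the values were 7.85, 9.95 and 9.22 in triggered arrays, against 9.92, 10.44 and 11.86 in naive arrays (change −1.73, SE 0.56, limma adjusted p = 0.0538). In both genes triggered replicate 1 was the lowest array and naive replicate 3 the highest. Changes of rpl36 (−1.28), rpl20 (−1.10) and rpl32 (−0.62) had overlapping groups and adjusted p-values from 0.240 to 0.308.

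**Figure D2:**
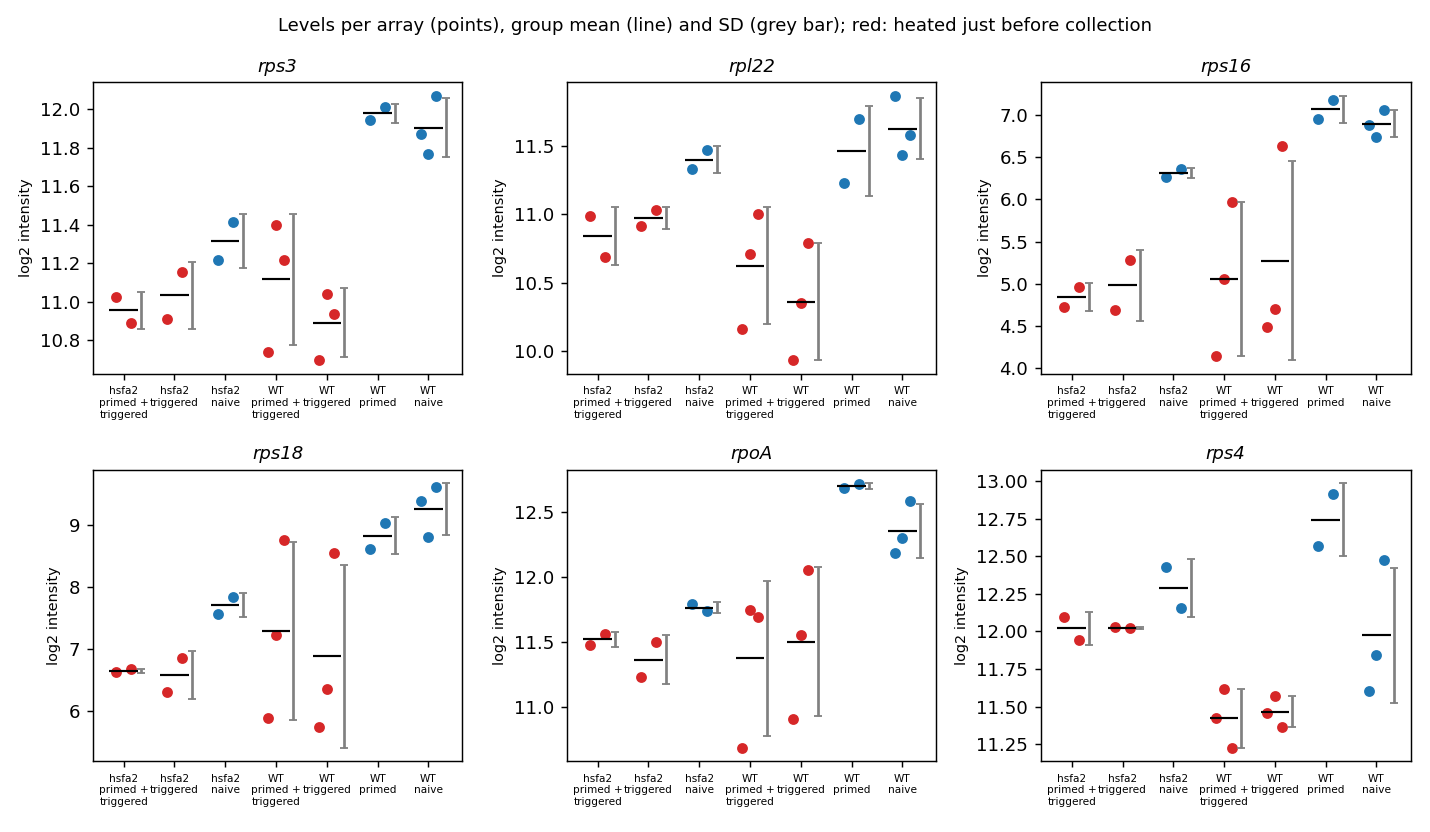
Log2 intensity of 6 genes in every array (points), with the mean (line) and SD (grey bar) of each group and n of 2 or 3. Groups heated just before collection are red and the others blue. For rps3 every red wild-type point lies below every blue wild-type point, whereas for rps18 and rps16 the highest red wild-type point lies near the blue ones.

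The changes were also followed along the plastid genome, in the gene order of the RefSeq table. The 7 measured genes of the run that begins with rpoA and holds rpl36, rpl14, rpl16, rps3, rpl22 and rps19 had changes from −1.79 to −0.85 (median −1.28). Of these genes 2 were called lower, where 9.50% of all probe sets were. In the run of rpl33, rps18 and rpl20 the median was −2.11, with 1 call. In the run of rps2, rpoC2, rpoC1 and rpoB the median was −1.39, with changes from −1.70 to 0.27 and no call. The genes rps4, rps14, rps15, rps16 and rpl32 each stand apart from the others.

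Other plastid-encoded genes also lay lower, by a smaller median. Of 43 measured photosynthesis genes, 41 had a lower mean in triggered seedlings, with a median of −0.59. Limma called 2 of the 43 lower, where it called 9.50% of all probe sets lower. These were ndhA, of the NADH dehydrogenase-like complex (−0.97, SE 0.26, limma adjusted p = 0.0243), and atpB, of the ATP synthase (−0.50, SE 0.12, limma adjusted p = 0.0106). None of 7 other plastid-encoded genes was called, and their median was −0.73. Array by array, the median of the ribosome and polymerase genes was below that of the photosynthesis genes by 0.47 to 0.57 in triggered arrays, and the difference of medians was −0.12 to 0.24 in naive arrays. The difference between both gene classes was not tested. Both classes followed the same order of arrays after heat: the photosynthesis median was −1.56, −0.45 and 0.27 in triggered replicates 1 to 3 and 0.24, −0.53 and 0.11 in naive replicates 1 to 3.

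**Figure D3:**
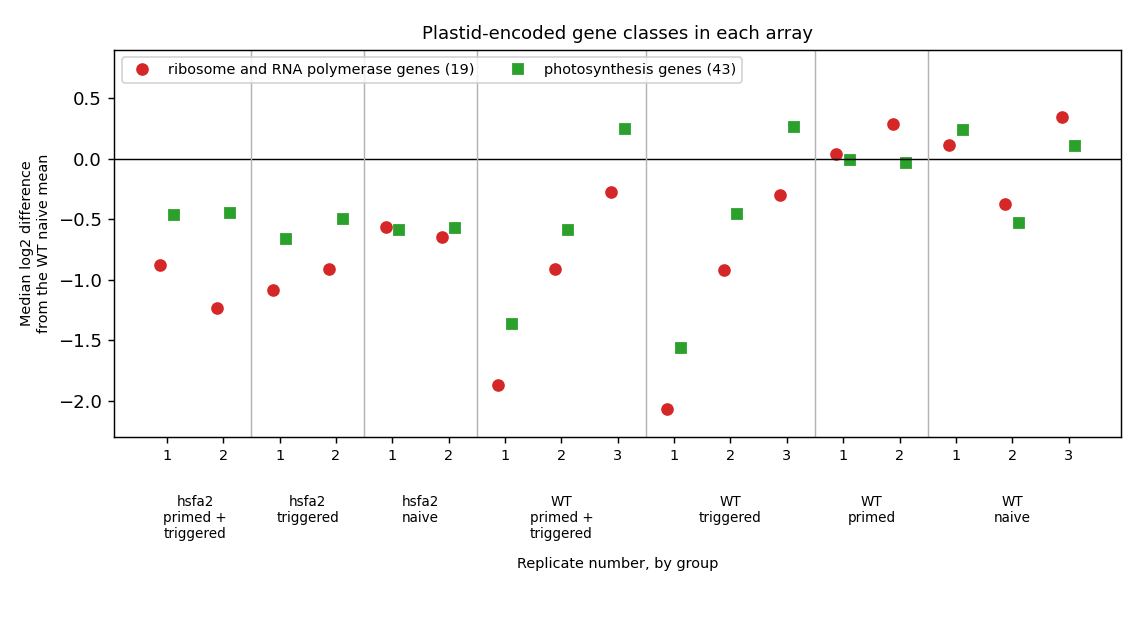
Median log2 difference from the wild-type naive mean over the 19 ribosome and RNA polymerase genes (red circles) and over 43 photosynthesis genes of the plastid genome (green squares), for each array by group and replicate number. In all 10 arrays heated just before collection the circle is below the square, and in both heated wild-type groups replicate 1 is lowest and replicate 3 highest.

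Among nuclear genes for the same machinery, 9 of 33 listed plastid ribosomal protein genes were measured. In triggered seedlings 3 were called lower, where 9.50% of all probe sets were. They were AT3G13120 (−0.50, SE 0.12, limma adjusted p = 0.0124), AT1G29070 (−0.41, SE 0.12, limma adjusted p = 0.0323) and AT5G65220 (−0.40, SE 0.10, limma adjusted p = 0.0135). The 9 genes had changes from −0.50 to 0.01, with a median of −0.31. The single measured gene of 3 phage-type polymerases, AT5G15700, was at −0.02 and not called. None of 12 PEP-associated proteins and none of 6 sigma factors had a probe set annotated to 1 gene. The root genes PYK10, EXPA7 and EXPA18 were all called lower, with a median of −1.30, and of the leaf genes PRK was called lower (−0.74) and RCA was at −0.25. The part of such shifts in the plastid values was not tested.

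Seedlings that had been primed and then triggered were set against the same naive arrays. The 2 comparisons share those arrays, so their values are given side by side and are not independent. In primed and triggered seedlings 18 of 19 genes had a lower mean than in naive seedlings, with a median of −1.25. Limma called 4 genes lower and 0 higher, where it called 11.9% of all probe sets lower. Groups did not overlap in 7 of 19 genes, against 16.6% of all probe sets. The called genes were rps3 (−0.79, SE 0.16, adjusted p = 0.00410), rpl22 (−1.002, SE 0.24, adjusted p = 0.00991), rps16 (−1.84, SE 0.50, adjusted p = 0.0202) and rpoA (−0.98, SE 0.29, adjusted p = 0.0292). For rps3 the values were 10.74, 11.40 and 11.22 in primed and triggered replicates 1 to 3, and for rpl22 10.16, 10.71 and 11.001. For rps16 they were 4.14, 5.06 and 5.97, and for rpoA 10.68, 11.74 and 11.69. All of these lay below every naive array of the same gene. The rps18 change of −1.97 (SE 0.69) was not called, and its array of replicate 3, at 8.74, lay 0.05 under the lowest naive array. The number of calls was 2 without primed and triggered replicate 1 or without naive replicate 3, 7 without primed and triggered replicate 2, and 6 without naive replicate 2, where rpoA was not called, or without primed and triggered replicate 3. Of the photosynthesis genes 4 of 43 were called lower, and their median was −0.56.

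Whether earlier priming altered the levels after heat was tested within the heated wild type, where primed and triggered arrays were set against arrays that were only triggered. No gene of the 19 was called by limma, and 0 had an unadjusted p under 0.05, where 0.308% of all probe sets were called and 1098 had an unadjusted p under 0.05. Changes ran from −0.22 (rps16) to 0.53 (rpl33), with a median of 0.15, and 13 of 19 were above 0. The 95% intervals of the single genes reached from −1.63 to 2.20, so differences of 2-fold could not be seen for many of them in this fit.

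Same-numbered arrays of both groups stood close together. For rps18 the pairs were 5.89 in primed and triggered and 5.74 in triggered replicate 1, 7.22 and 6.36 in replicate 2, and 8.74 and 8.54 in replicate 3. The gene rpl33 had 7.90 in primed and triggered and 7.18 in triggered replicate 1, 9.41 and 8.87 in replicate 2, and 10.99 and 10.68 in replicate 3. For rpl33 the steps between replicate numbers were larger than the differences between treatments, which did not hold for every step of rps18. In 17 of 19 genes the 3 arrays stood in the same order in both groups, and in 18 of 19 the largest difference within a replicate number was smaller than the range of the triggered arrays. The mean difference within a number, regardless of sign, had a median over genes of 0.26, whereas the range of the primed and triggered arrays had a median of 1.82 and that of the triggered arrays 1.97. Replicate 1 was the lowest array in 17 of 19 genes in primed and triggered and in 16 of 19 in triggered seedlings, and replicate 3 was the highest in 12 and in 13.

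**Figure D4:**
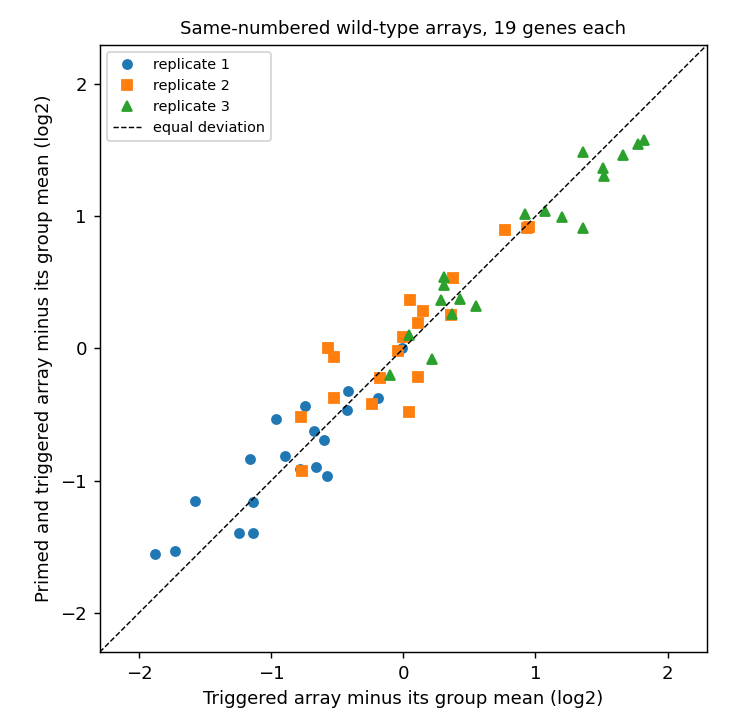
Deviation of each gene from its group mean, in log2 units, in primed and triggered wild-type arrays (vertical axis) against the same-numbered triggered arrays (horizontal axis), with 19 genes for each replicate number. Points lie along the line of equal deviation, with replicate 1 mostly below 0 and replicate 3 mostly above 0 on both axes.

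When the 6 arrays of these groups were fitted with the replicate number as a block, 0 of 19 genes were called by limma and 2 had an unadjusted p under 0.05, where 0.624% of all probe sets were called and 2203 had an unadjusted p under 0.05. Those 2 were rpl33 (0.53, SE 0.13, adjusted p = 0.193) and rps18 (0.40, SE 0.16, adjusted p = 0.483). With the block the 95% intervals of all 19 genes lay within −0.66 and 0.83. These intervals rest on a pairing that was taken from these data and that the labels do not state. Within replicate numbers the median difference was 0.15, 0.24 and 0.04. The genes rpl16, rpl22, rpl33, rpoC1, rpoC2, rps2, rps3, rps18 and rps19 were higher in primed and triggered seedlings in all 3 pairs and rps15 was lower in all 3, while the other 9 differed in direction between pairs.

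Whether the first heat left a difference after 3 d of recovery was tested by setting primed against naive wild-type seedlings. Limma called 0 of 19 genes, where it called 0.00440% of all probe sets, and 2 of 19 had an unadjusted p under 0.05 (rps4 and rps14), against 2061 of all probe sets. The median change was 0.13, with changes from −0.43 to 1.08 and 95% intervals that reached from −2.29 to 2.32. The primed arrays lay above all naive arrays in 2 genes, against 9.54% of all probe sets. One was rps4, at 12.57 and 12.92 in primed replicates 1 and 2, against 11.60, 11.84 and 12.47 in naive replicates 1 to 3 (change 0.77, SE 0.21, limma adjusted p = 0.382). The other was rpoA, at 12.69 and 12.72 in primed arrays, against 12.18, 12.30 and 12.59 in naive arrays. In both genes naive replicate 3, the naive array with low bioB, stood nearest to the primed arrays. The dim gene rps14 was at 5.21 and 5.53 in primed arrays, against 4.04, 3.33 and 5.49 in naive arrays. Its level was at least 5.21 in the 3 arrays of low bioB and at most 4.35 in the other 14. Without naive replicate 3, rps4 and rps14 were called higher in primed seedlings. Within the low-bioB arrays, which the block fit compares, the median turned to −0.25 with 14 of 19 genes below 0, against 0.13 with 6 of 19 below 0 over all arrays, and without naive replicate 2 it was −0.16, with 0 calls in each. Primed arrays and low bioB signal cannot be told apart except through that single naive array.

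The step to the second heat, primed and triggered against primed seedlings, gave 8 of 19 genes called lower and 0 higher, where limma called 12.6% of all probe sets lower. Groups did not overlap in 13 genes, against 23.2% of all probe sets, and the median change was −1.33. The called genes were rps3 (−0.86, SE 0.18, adjusted p = 0.00483), rps4 (−1.32, SE 0.21, adjusted p = 0.000841), rps14, rps16, rpl14, rpl16, rpl22 and rpoA. For rps4 the primed and triggered arrays were at 11.43, 11.62 and 11.23, against 12.57 and 12.92 in primed arrays, which is 0.95 apart at the nearest. These calls differ from those against naive seedlings by rps4, rps14, rpl14 and rpl16. In these 4, and also in rps3, rps16 and rpoA, which both comparisons called, the 3 arrays of low bioB were the highest of the 11 wild-type arrays. With the low-bioB arrays as a block, 0 of 19 genes were called and rps14 turned to 0.25 (SE 0.48, adjusted p = 0.824). The number of calls was 2 without primed replicate 1 or without primed replicate 2, and 3 without primed and triggered replicate 1.

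In hsfa2 seedlings most of the 19 means were again lower after heat, and none was called in the fit of all arrays. Against naive hsfa2 seedlings the median change was −0.43 in triggered seedlings, with 16 of 19 genes below 0. Limma called 0 of 19 genes, where it called 8.39% of all probe sets, and 1 gene had an unadjusted p under 0.05, against 4784 of all probe sets. That gene was rps16, at 4.69 and 5.28 in triggered hsfa2 arrays, against 6.27 and 6.35 in naive hsfa2 arrays, a change of −1.33 (SE 0.61, adjusted p = 0.237). For rps18 the values were 6.30 and 6.85 in triggered hsfa2 arrays, against 7.57 and 7.84 in naive hsfa2 arrays (change −1.12, SE 0.84). The gene rpl33 had 8.62 and 9.09 in triggered hsfa2 arrays, against 9.65 and 9.91 in naive hsfa2 arrays (change −0.93, SE 0.95). In these 3 genes the groups did not overlap, and the widest range within a group was 0.60, that of rps16 in triggered hsfa2 arrays. Groups were without overlap and lower in 15 of 19 genes and higher in 2, where 32.8% and 32.6% of all probe sets were, in a design of 2 arrays a group.

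The spread used for the hsfa2 arrays came mostly from the wild type. The median range over the 19 genes was 0.15 in primed and triggered, 0.21 in triggered and 0.22 in naive hsfa2 arrays, against 1.82, 1.97 and 1.28 in the same wild-type groups. Fitted on the 4 hsfa2 arrays alone, triggered against naive gave 8 genes called lower by limma and 0 higher, where 14.9% of all probe sets were called lower. They were rpl14, rpl20, rpl22, rpl33, rpoC1, rps16, rps18 and rps19. Primed and triggered hsfa2 seedlings had a median change of −0.56 against naive hsfa2 seedlings, with 0 calls in the fit of all arrays (7.80% of all probe sets) and 16 of 19 genes without overlap and lower (34.9% of all probe sets). On those 4 arrays alone 12 genes were called lower, where 17.2% of all probe sets were, and rpoB was called higher (26.4% of all probe sets were called in either direction). For rps16 that fit gave −1.47 (SE 0.12, adjusted p = 0.000280). Primed and triggered against triggered hsfa2 seedlings gave 0 calls among the 19 genes and 0 over all probe sets, with 0 and 1331 at an unadjusted p under 0.05, a median change of −0.02 and intervals from −2.50 to 2.01.

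**Figure D5:**
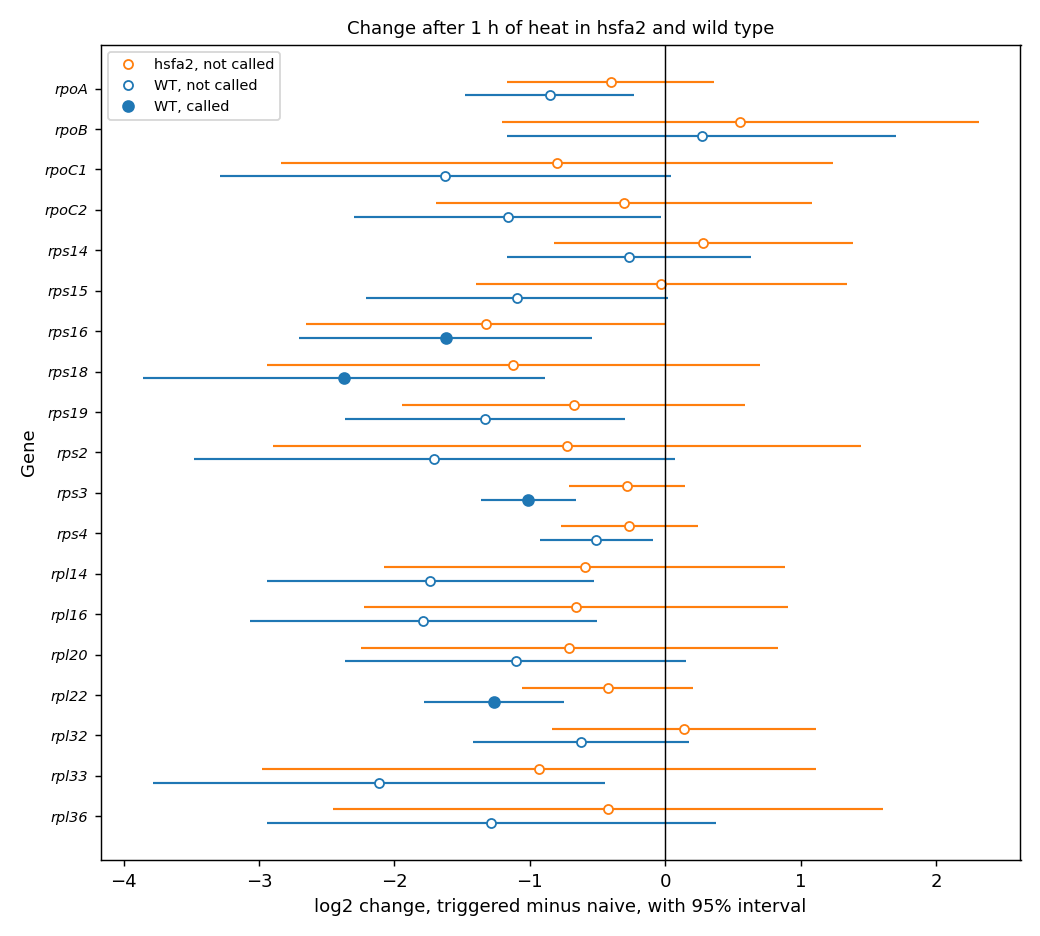
Log2 change of each gene in triggered against naive seedlings, with its 95% interval from the fit of all 17 arrays, in hsfa2 (orange, upper of each pair) and wild type (blue). Filled points are genes called at a limma adjusted p under 0.05, which are rps16, rps18, rps3 and rpl22 in the wild type. Every orange point lies to the right of its blue partner, and the intervals of each pair overlap.

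Between genotypes no gene was called. In naive seedlings 16 of 19 genes had a lower mean in hsfa2 than in the wild type (median −0.59), beside 34 of 43 photosynthesis genes (median −0.63). Limma called 0 genes and 0 of all probe sets, and 2 genes had an unadjusted p under 0.05, rps3 (−0.59, SE 0.18, adjusted p = 0.545) and rpl32 (−1.03, SE 0.41, adjusted p = 0.750), against 1317 of all probe sets. For rps3 the values were 11.22 and 11.41 in naive hsfa2, against 11.87, 11.77 and 12.07 in naive wild type. Groups did not overlap and were lower in hsfa2 in 7 genes, against 10.1% of all probe sets. After triggering the median difference was 0.14 (0 genes and 0.00879% of all probe sets called), and after both heats −0.06 (0 genes and 1.37% called).

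The difference in the change with triggering, hsfa2 minus wild type, was above 0 for 19 of 19 genes, against 52.4% of all probe sets, with a median difference of 0.83. Limma's test of that difference called 0 genes, where it called 0.00440% of all probe sets, and 2 genes had an unadjusted p under 0.05, against 269 of all probe sets. Other plastid genes lay the same way: 4 of 43 photosynthesis genes (median 0.57) and 0 of 7 other plastid-encoded genes (median 0.76) were below 0, and the difference between gene classes was not tested. The intervals of the single differences reached from −1.99 to 3.83. The median difference was between 0.34 and 1.07 when each array of these groups was left out in turn, and 0 genes were called each time. By its definition the difference includes the naive levels, where hsfa2 had lower means in 16 of 19 genes and limma called 0. The part of the naive levels in the difference was not tested.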

How the data were processed

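Transcript levels of whole seedlings were measured on 17 arrays. The authors deposited linear intensity values (3.94 to 19602) made with RMA, per the submitters' processing notes, which give no version or settings. Per the labels, cRNA was labelled from 6 ug of total RNA. Log2 was taken of the deposited intensities without a pseudocount or further normalization, and 64 control probe sets were left out. Probe sets were named through the platform annotation (13513 with 1 gene, 503 with several, 8730 not listed) and RefSeq (TAIR10.1). The values carry no genome build, and no sequence is shown. The number of arrays limits the precision.

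Fits used limma 3.58.1 (R 4.3.3, 10 residual degrees of freedom, prior 2.92) with 12 contrasts and 95% intervals, and the script was tested on simulated data. Every gene that the selection finds is named; from the other lists, called genes were named, up to 4 a list. The genes and lists were chosen with earlier results of these data known. The labels do not say that equal replicate numbers share a batch. From these data alone, replicate numbers appeared to pair primed and triggered with triggered wild-type arrays. Deviations from the group means correlated at 0.56, 0.64 and 0.66 over all probe sets for numbers 1 to 3. Between triggered and naive arrays the values were −0.16, 0.57 and 0.18, so numbers did not pair these throughout, and only number 2 was alike. Alternatives were centring, quantile normalization, an offset of 16, a filter at a mean of 5, an intensity trend, blocks, fits of the compared groups alone and leaving out each array. No array repeated another.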

Additional observations from a re-analysis of the deposited data

How the results depend on the processing

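The number of the 19 genes called moved by more than 1.5 times in 6 of 12 comparisons. With the low-bioB arrays as a block it was 2 for triggered and 2 for primed and triggered against naive wild type (4 each as reported) and 0 for primed and triggered against primed (8 as reported), where rps14 turned to 0.25. That block equals leaving out naive replicate 3 in the comparisons of heated with naive wild-type arrays. With a replicate block the counts were 11, 7 and 14 in these 3 comparisons and 1 each for triggered and for primed and triggered against naive hsfa2 (0 as reported). Over all probe sets, that block called 16.8% for triggered against naive wild type, against 15.4% as reported. In deviations from their group means, same-numbered naive and triggered wild-type arrays were alike for number 2 (0.57 over all probe sets), less so for numbers 1 and 3 (−0.16 and 0.18). A block by number is therefore not a paired test against naive wild-type arrays. The replicate block changed no call between primed and triggered and triggered arrays (0 with and without it). Fits of only the compared groups gave 2, 1 and 2 calls in the wild-type comparisons and 8 and 13 in hsfa2. Over all probe sets, these hsfa2 fits called 22.4% for triggered and 26.4% for primed and triggered against naive. Leaving out single arrays gave 2 to 9 for triggered and 2 to 7 for primed and triggered against naive wild type, 0 to 2 for primed against naive and 2 to 10 for primed and triggered against primed; where 1 array is left in a group, it is assumed to vary like the other groups. In the other 6 comparisons, which gave 0 calls, no alternative gave one. The offset, the filter, the trend, centring and quantile normalization moved no count by more than 1.5 times. The cause of these moves was not tested. Spread between wild-type arrays and the number of arrays limit what can be called. Signal also limits rpoB and rps14, and rps16 was low in several heated arrays.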

Other observations

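In the 19 genes, some naive and heated wild-type arrays deviated from their own group means in like ways, which does not compare their levels. Deviations from the group means in naive replicate 1 correlated with those in primed and triggered replicate 3 at 0.81 and in triggered replicate 3 at 0.75 across the 19 genes, and at 0.39 and 0.40 across all probe sets. For naive replicate 2 the values were 0.82 with primed and triggered replicate 2 and 0.51 with triggered replicate 2 across the 19 genes, and 0.61 and 0.57 across all probe sets. Other pairs went the opposite way across the 19 genes. Naive replicate 1 was at −0.78 with primed and triggered replicate 2 and at −0.72 with triggered replicate 2. Naive replicate 2 was at −0.63 with primed and triggered replicate 3 and at −0.55 with triggered replicate 3. Naive replicate 3 reached at most 0.34 with any heated wild-type array across the 19 genes. Within a group of 3 arrays the deviations of a gene sum to 0, so positive and negative values are tied. These are descriptions across genes, which are not independent replicates, and all of these deviations share the RMA normalization. In hsfa2, the photosynthesis median was 0.08 in primed and triggered and −0.07 in triggered against naive seedlings, beside −0.56 and −0.43 for the 19 genes. The wild-type medians lay apart as well. For photosynthesis genes they were −0.56 in primed and triggered and −0.59 in triggered seedlings, beside −1.25 and −1.27 for the 19 genes. The difference between the gene classes was not tested.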
